A study of Mus musculus with 15 samples.

Results

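The enzymes that bring pyruvate into mitochondria and turn the tricarboxylic acid (TCA) cycle were measured as 36 genes in mouse mammary tumours, before treatment and when treatment ended with vehicle, the anti-VEGF antibody B20 or the kinase inhibitor nintedanib. The genes were taken from a list of named enzymes, and their probes were found through the transcript identifiers of the array. All 36 were measured, by 50 probes, out of 19752 gene symbols on the array. They comprise the 2 subunits of the mitochondrial pyruvate carrier, pyruvate carboxylase, 5 subunits of the pyruvate dehydrogenase complex with 4 kinases and 2 phosphatases that regulate it, 7 genes of the span from citrate to 2-oxoglutarate, 5 from there to succinate, 4 of succinate dehydrogenase, 3 from fumarate to oxaloacetate, and 3 malic enzymes. Every member was well above background on all 15 arrays.

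Pyruvate made by glycolysis crosses the inner mitochondrial membrane through the pyruvate carrier. The pyruvate dehydrogenase complex oxidises it to acetyl-CoA, and pyruvate carboxylase converts it to oxaloacetate, which refills the cycle when intermediates are drawn off. Pyruvate dehydrogenase kinases switch the complex off by phosphorylation and the phosphatases switch it on again. The cycle then oxidises acetyl-CoA stepwise and passes electrons to the respiratory chain, in part directly through succinate dehydrogenase, which is also respiratory complex II. These enzymes are present in nearly all cells, and are abundant in muscle and brown fat.

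The tumours came from female MMTV-PyMT mice, which carry the polyoma virus middle T oncogene under a mouse mammary tumour virus promoter active in mammary epithelium. The T0 group (n = 4) was taken before any treatment, and the sources used here do not give its age. The other groups were taken at treatment end, after vehicle (n = 3), B20 at 5 mg/kg into the peritoneum, 2 times per week (n = 4), or nintedanib at 85 mg/kg per day by mouth (n = 4), begun at 7 weeks of age. B20 binds VEGF, which drives the growth of blood vessels, and nintedanib inhibits the receptor kinases for VEGF, FGF and PDGF. Nothing in the labels says that each sample is from its own animal, so the p-values reflect the spread between samples, which may be technical.

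Levels are log2 spot signals, with the 75th percentile of each array subtracted. Differences are log2 values with the SE of a linear model fitted over 28041 genes and unnamed transcripts. On 14 arrays 53.5% to 68.1% of probes were well above background, against 84.2% on T0 replicate 3. T0 replicate 4 carries a second treatment label, vehicle, and was kept in T0 by its title. The 4 T0 arrays lay on 2 slides of their own, scanned in another session with another protocol version, so slide, scan and group cannot be told apart in comparisons with T0. The 12 luminal epithelial markers were well above background on all 15 arrays.

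In the heat map of levels, T0 was mostly higher than the end of treatment, but not on every array. The mean over the 36 genes was 3.06 on T0 replicate 3, below 3.16 on B20 replicates 1 and 2. The treated groups did not separate from vehicle. The highest group mean was in T0 for 33 of the 36 genes. The exceptions were the cytosolic aconitase Aco1 and the malic enzyme Me2, highest in vehicle, and the kinase Pdk3, highest in nintedanib. The mean level over the 36 genes was 3.44 ± 0.43 (SD, n = 4) in T0, 2.81 ± 0.10 (SD, n = 3) in vehicle, 2.96 ± 0.24 (SD, n = 4) in B20 and 2.81 ± 0.16 (SD, n = 4) in nintedanib.

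**Figure D1:**
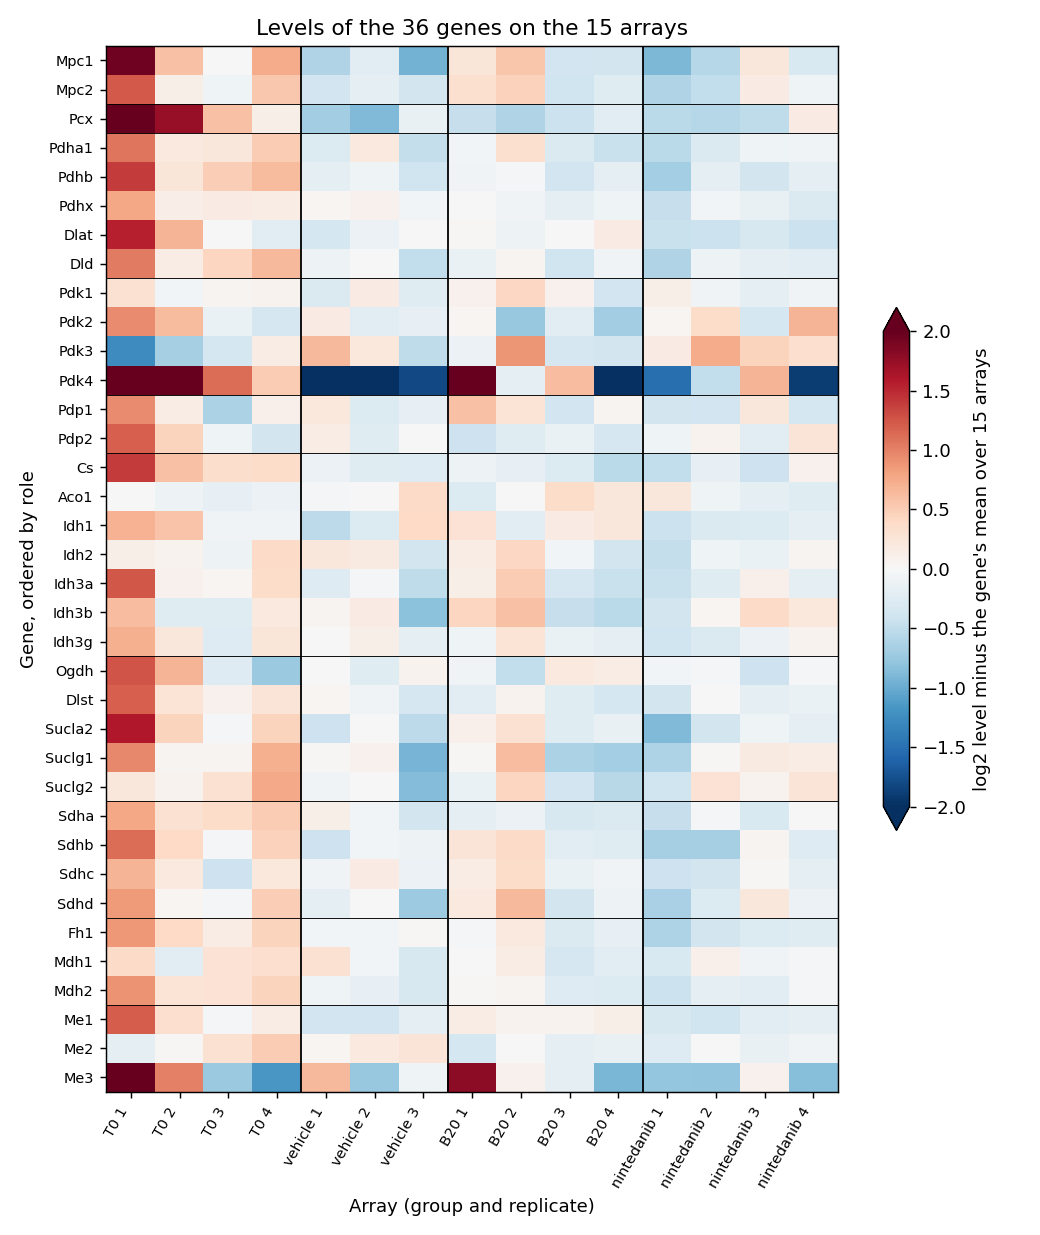
Each row is 1 of the 36 genes, ordered by role, and each column is 1 of the 15 arrays, named by group and replicate. Colour gives the log2 level minus the gene's mean over the 15 arrays and stops at 2 on either side. T0 replicate 1 is the highest of the T0 arrays for 32 of the genes.

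The comparison of nintedanib with vehicle asked what the kinase inhibitor changed at treatment end. None of the 36 genes passed the test. With limma, 0 of 36 members had an adjusted p under 0.05, against 0% of all genes tested, and 0 members had an unadjusted p under 0.05, against 4.83% of all genes. Their median difference was -0.06, with 14 higher and 22 lower, beside -0.01 for all genes tested. All 5 subunits of the pyruvate dehydrogenase complex had lower means with nintedanib and all 4 of its kinases had higher means, none of them past the test. Of all genes 48.8% had higher means. The pattern did not hold on the slide with 1 array of each group. There Pdha1, Pdhb and Dld were higher, by 0.41, 0.20 and 0.29, and Pdk4 differed by -0.11, while Pdhx and Dlat were lower and the other kinases higher.

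The lowest p among the members belonged to Fh1, fumarate hydratase, which makes malate from fumarate. Its levels were 4.35, 4.60, 4.69 and 4.72 with nintedanib and 4.91, 4.90 and 4.98 with vehicle. The groups did not overlap, but the difference of -0.34 ± 0.18 had a 95% interval from -0.74 to 0.05 (limma, adjusted p = 0.999). Me2, a mitochondrial malic enzyme that makes pyruvate from malate, was measured at -0.61, -0.35, -0.50 and -0.43 with nintedanib and -0.32, -0.16 and -0.09 with vehicle. These groups were also apart, by 0.04, with a difference of -0.29 ± 0.17. Pdhx, the subunit that binds the E3 enzyme to the complex, differed by -0.26 ± 0.17, and its groups overlapped. Suclg2, the GTP-specific succinyl-CoA ligase subunit, differed by 0.36 ± 0.28. Its difference was 0.02 on the slide that held 8 arrays and 1.11 on the slide that held 1 array of each group, and it was 0.09 without vehicle replicate 3.

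Pdk4, a kinase of the complex that is induced by fasting and by fatty acids, had the widest spread of the members over the nintedanib, B20 and T0 arrays, though not over the vehicle arrays (SD 1.16, 2.35, 1.90 and 0.41). Its levels were -2.17, -1.15, 0.02 and -2.56 with nintedanib and -3.28, -2.78 and -2.46 with vehicle, so the groups overlapped. The difference was 1.37 ± 1.18 (adjusted p = 0.999), and 0.88 without nintedanib replicate 3 or with the authors' values. Pdk1, the kinase known as a target of the hypoxia response, differed by 0.07 ± 0.19. Citrate synthase, Cs, differed by -0.04 ± 0.24, with a 95% interval from -0.56 to 0.48, and the cytosolic isocitrate dehydrogenase Idh1 by -0.17 ± 0.25. The signs for Pdk1, Cs and Idh1 changed under some alternatives, and Idh1 was -0.36 without vehicle replicate 1 and 0.10 without vehicle replicate 3.

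The same question was put to the antibody by comparing B20 with vehicle. Again 0 of 36 members passed the test with limma, against 0% of all genes, and 0 had an unadjusted p under 0.05, against 3.25% of all genes. The members' median difference was 0.08, with 23 higher and 13 lower, beside 0.04 for all genes. Me2 had the lowest p here, with levels of -0.71, -0.35, -0.54 and -0.49 with B20, all below the vehicle arrays by at least 0.04, and a difference of -0.34 ± 0.17 (adjusted p = 0.998). Both comparisons use the same 3 vehicle arrays, so the values for Me2 are not independent.

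Me1, the cytosolic malic enzyme that supplies NADPH for fatty acid synthesis, was measured at 5.31, 5.24, 5.23 and 5.28 with B20 and 4.78, 4.78 and 4.97 with vehicle. All B20 arrays were higher, by at least 0.26, and the difference was 0.42 ± 0.23, with a 95% interval from -0.08 to 0.93 (adjusted p = 0.998). Mpc1, a pyruvate carrier subunit, differed by 0.60 ± 0.41 and the succinate dehydrogenase membrane anchor Sdhd by 0.40 ± 0.30, with overlapping groups. Without vehicle replicate 3 the difference of Sdhd was 0.20, without B20 replicate 2 it was 0.22, and with the authors' values 0.26.

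For Pdk4 the B20 levels were 2.08, -0.85, -0.04 and -3.59, so that replicate 1 was above every vehicle array and replicate 4 was below every one. The difference was 2.24 ± 1.18 (adjusted p = 0.998), or 1.34 without B20 replicate 1. Within slides it was 3.43 on the slide of 8 arrays and -1.13 on the slide with 1 array of each group. Pdk1 differed by 0.17 ± 0.19, Cs by -0.06 ± 0.24 and Idh1 by 0.25 ± 0.25. Single arrays moved these values: Pdk1 was 0.05 without B20 replicate 2, 0.09 without vehicle replicate 1 and 0.32 without B20 replicate 4 or vehicle replicate 2, and Idh1 was 0.05 without vehicle replicate 1 and 0.52 without vehicle replicate 3. Cs was -0.21 with the authors' values.

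The 2 drugs were also set directly against each other. Of the 36 members 0 passed with limma, against 0% of all genes, and 0 had an unadjusted p under 0.05, against 9.38% of all genes. The median difference, nintedanib minus B20, was -0.15, with 12 higher and 24 lower, beside -0.04 for all genes. The highest-ranked member was Pdk2, a kinase of the complex expressed in many tissues, at 1.93, 2.25, 1.55 and 2.58 with nintedanib and 1.93, 1.13, 1.66 and 1.19 with B20. The groups overlapped, and the difference was 0.60 ± 0.31, with a 95% interval from -0.06 to 1.26 (adjusted p = 0.558).

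Me1 was lower on every nintedanib array, at 4.83, 4.76, 4.94 and 4.98, than on every B20 array, by at least 0.25. Its difference was -0.39 ± 0.22 (limma, adjusted p = 0.593). Idh1 was measured at 0.29, 0.43, 0.46 and 0.52 with nintedanib and 1.01, 0.50, 0.90 and 0.95 with B20, groups that overlapped, with a difference of -0.41 ± 0.23 (adjusted p = 0.593). Fh1 differed by -0.31 ± 0.17 and the iron-sulfur subunit of succinate dehydrogenase, Sdhb, by -0.43 ± 0.25. With the authors' values the differences were nearer to 0, at -0.23 for Me1, -0.15 for Fh1 and -0.24 for Sdhb, and with quantile normalisation they were -0.25, -0.17 and -0.23. Pdk1 differed by -0.10 ± 0.18 and Cs by 0.02 ± 0.22. Pdk4 differed by -0.86 ± 1.09, and by 0.03 without B20 replicate 1 and -1.86 without B20 replicate 4.

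Members' medians in the treated groups differed between slides. Nintedanib minus vehicle had a median of -0.15 over the 5 arrays on the first slide, 0.27 over the 2 arrays on the second and -0.07 with slide as a block. B20 minus vehicle had medians of 0.04, 0.05 and 0.07 in that order. Nintedanib minus B20 had -0.24, 0.17 and -0.15, so in both comparisons of nintedanib the direction differed between slides, with 1 array per group on the second.

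**Figure D2:**
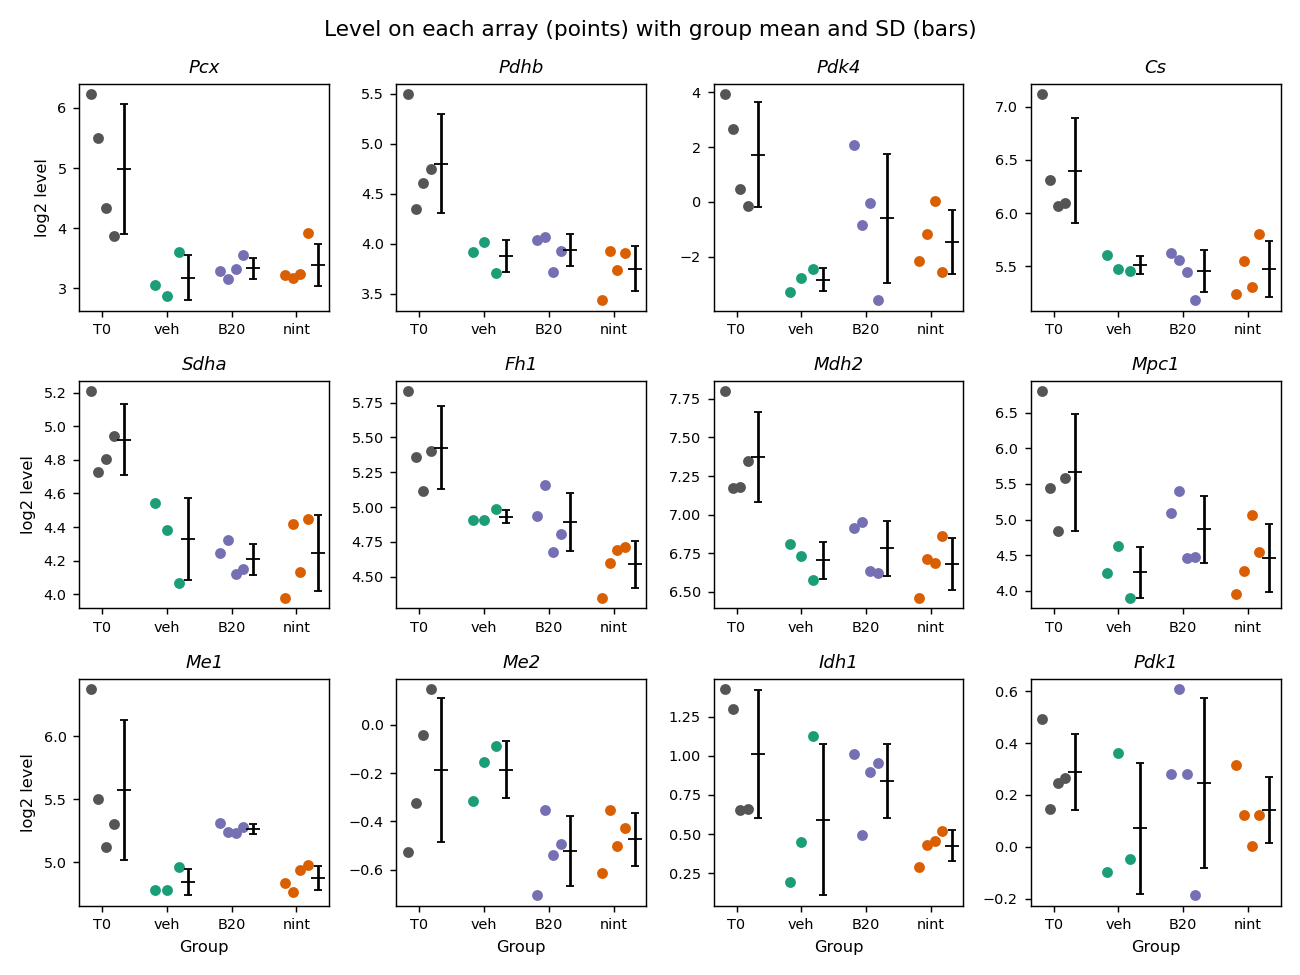
Points are log2 levels on single arrays of T0, vehicle (veh), B20 and nintedanib (nint) for 12 of the genes, and the bar beside each group is its mean with the SD. For Pdhb, Cs, Sdha and Mdh2 the T0 arrays lie above all 11 others, while Pdk1 overlaps between all groups.

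Against T0 the picture was different: nearly all of the 36 genes had lower means at the end of treatment, in vehicle as in both drug groups. In vehicle 33 of 36 members were lower and 3 of these passed the test, against 4.93% of all genes called. With nintedanib 34 were lower and 10 passed, against 11.4% of all genes. With B20 34 were lower and 6 passed, against 9.51% of all genes. These shares count genes that passed in either direction, and 597, 1297 and 1047 of the 28041 passed as lower. Of all genes 54%, 51.1% and 56.4% had higher means than in T0. No member passed as higher in any of the 3 comparisons. At an unadjusted p under 0.05 the members lower were 18 in vehicle, 19 with nintedanib and 12 with B20, with 1 higher, Pdk3, with nintedanib. The share of all genes at that threshold, in either direction, was 21.3%, 28.2% and 26.1%.

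The members' median difference from T0 was -0.58 in vehicle, -0.61 with nintedanib and -0.46 with B20, whereas the medians over all genes were 0.04, 0.01 and 0.08. These comparisons share the T0 arrays, so their values stand side by side and are not independent. In all, 11 members passed in at least 1 comparison. Pyruvate carboxylase (Pcx) and the pyruvate dehydrogenase subunit Pdhb passed in all 3, and Dld, Cs, Sdha and Mdh2 passed in 2. The shares of all genes that passed in 1, 2 or 3 comparisons were not counted. For 7 genes, Pdhb, Pdhx, Dld, Cs, Dlst, Sdha and Mdh2, the 4 T0 arrays were above all 11 others. How many of all genes were set apart in this way was not counted.

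The calls depended on how the arrays were scaled and which arrays entered the fit. With each array scaled by its median, 1, 0 and 1 members passed for vehicle, nintedanib and B20, namely Pdk4 in vehicle and Pcx with B20, against 2.43%, 4.88% and 4.23% of all genes. With only the arrays compared in the fit, 0, 1 and 0 passed, namely Fh1 with nintedanib, against 0.0606%, 5.20% and 3.49% of all genes. With slide as a random block, 1, 7 and 3 passed, against 3.12%, 7.22% and 5.48%, and the calls lost were those of Pdhb and Pdk4 in vehicle, Pdhx, Sucla2 and Sdhb with nintedanib, and Pdhb, Dld and Mdh2 with B20. With the authors' values 6, 10 and 9 passed, against 4.93%, 12.1% and 9.59% of all genes. The members' median stayed below 0 in each of these fits.

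**Figure D3:**
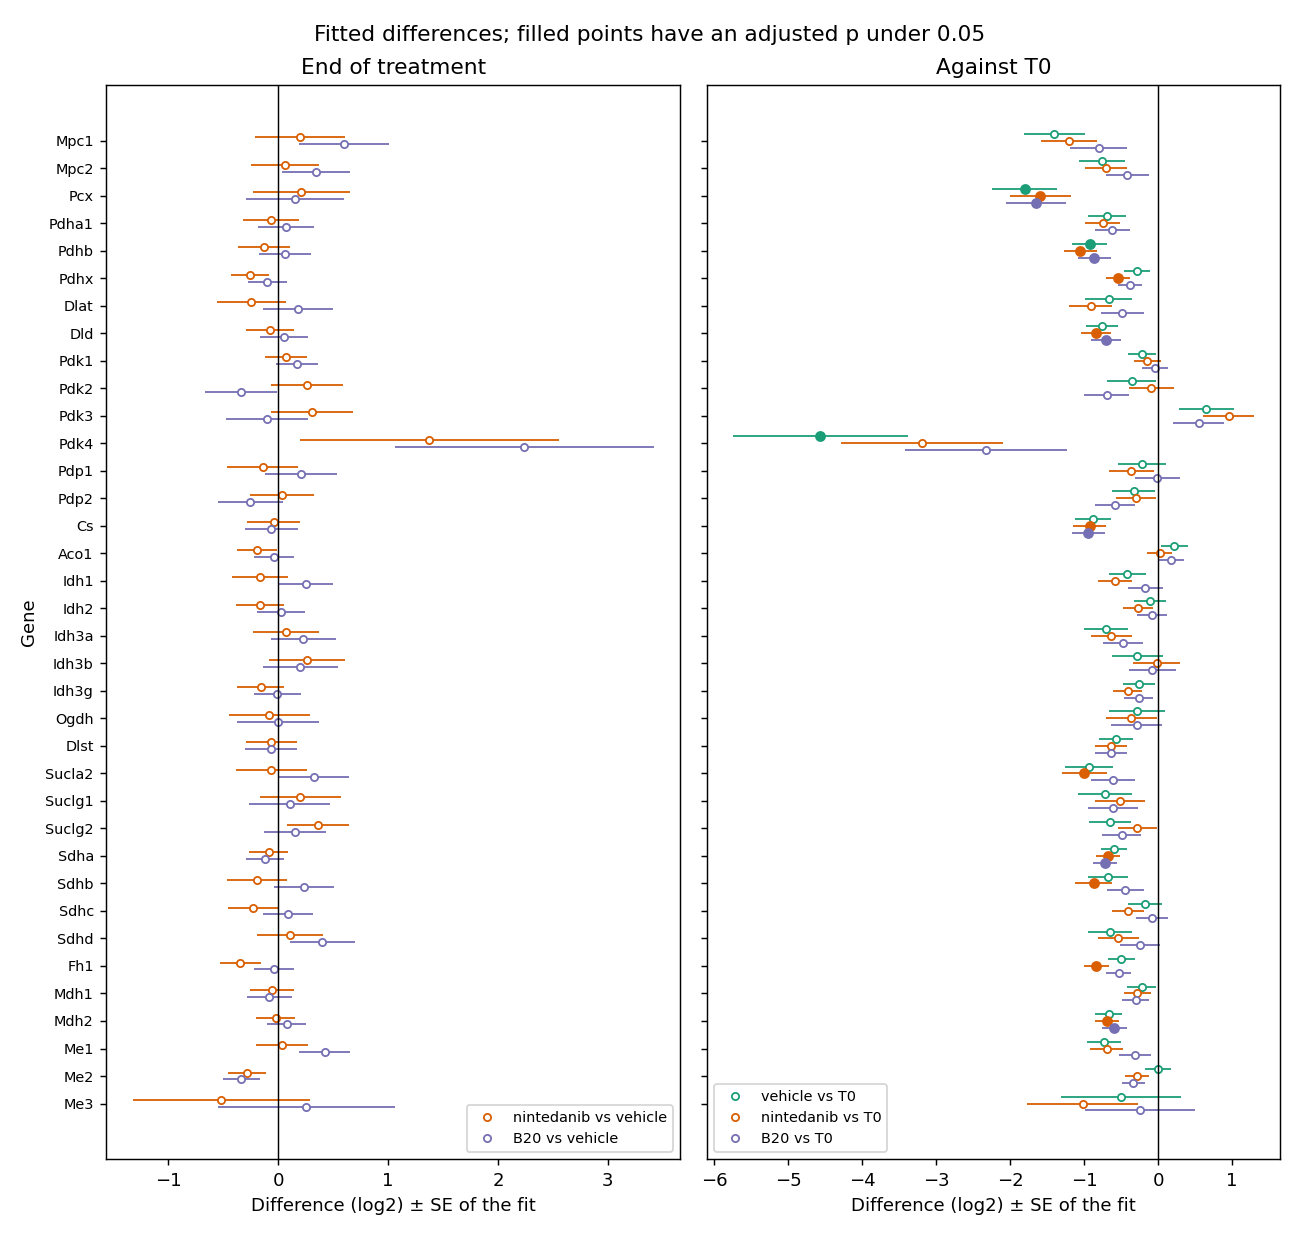
Points are fitted log2 differences of the 36 genes with the SE of the fit as bars, the drug groups against vehicle on the left and the 3 later groups against T0 on the right, on axes of different width. Filled points have an adjusted p under 0.05: there are none on the left, and 3, 10 and 6 on the right for vehicle, nintedanib and B20.

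Upstream sequences are shown for the 6 members that passed the test as lower in at least 2 comparisons with T0. They are the 150 bases before the transcription start from RefSeq, build GRCm38.p6, and capitals mark CCAAT, which reads as ATTGG on the other strand, and the motif GGGCGG, known as the GC box, which reads as CCGCCC there. The stretches are chr19:4510322-4510471 and chr19:4594169-4594318 on the + strand for the 2 Pcx starts, chr14:8172993-8173142 on the - strand for Pdhb, chr12:31351472-31351621 on the - strand for Dld, chr10:128337577-128337726 on the + strand for Cs, chr13:74350241-74350390 on the - strand for Sdha, and chr5:135778499-135778648 on the + strand for Mdh2.
Pcx: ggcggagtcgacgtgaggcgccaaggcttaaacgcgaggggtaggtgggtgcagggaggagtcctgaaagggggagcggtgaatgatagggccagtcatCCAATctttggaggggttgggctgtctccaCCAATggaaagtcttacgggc
Pcx, second start: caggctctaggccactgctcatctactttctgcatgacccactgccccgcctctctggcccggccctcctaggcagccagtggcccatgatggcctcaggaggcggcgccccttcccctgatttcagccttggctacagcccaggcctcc
Pdhb: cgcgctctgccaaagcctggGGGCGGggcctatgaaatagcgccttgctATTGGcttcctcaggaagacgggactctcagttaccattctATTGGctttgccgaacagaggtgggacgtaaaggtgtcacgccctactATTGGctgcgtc
Dld: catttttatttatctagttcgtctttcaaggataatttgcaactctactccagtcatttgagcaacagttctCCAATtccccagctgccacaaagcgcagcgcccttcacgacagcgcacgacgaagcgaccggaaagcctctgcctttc
Cs: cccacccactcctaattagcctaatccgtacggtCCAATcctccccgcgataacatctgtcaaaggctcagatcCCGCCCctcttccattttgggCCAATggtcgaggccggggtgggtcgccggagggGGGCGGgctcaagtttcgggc
Sdha: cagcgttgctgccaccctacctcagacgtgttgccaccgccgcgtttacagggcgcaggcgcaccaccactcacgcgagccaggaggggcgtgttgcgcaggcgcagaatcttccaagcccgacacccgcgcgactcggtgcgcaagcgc
Mdh2: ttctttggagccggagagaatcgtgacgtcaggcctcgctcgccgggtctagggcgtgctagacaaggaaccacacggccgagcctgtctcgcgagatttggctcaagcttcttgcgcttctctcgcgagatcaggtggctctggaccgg

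The stretch of the first Pcx start holds 2 CCAAT boxes, that of Pdhb 3 with 1 GC box, that of Dld 1, and that of Cs 2 with 2 GC boxes. Those of the second Pcx start, Sdha and Mdh2 hold neither motif. RefSeq windows from 250 bases before to 50 after the start were matched for 32 of the 36 members, all but Pdp1, Idh3a, Sdhc and Me2. Searched on both strands and over all windows of a gene, CCAAT was in 21 of 32 members (65.6%) and in 41.1% of 27025 genes, and GGGCGG in 23 (71.9%) and 38.2%. Both were added to the search after the sequences were seen. The E-box CACGTG was in 4 members (12.5%) and 8.09% of genes, AAGGTCA in 2 (6.25%) and 5.38%, CCGGAAGT in 1 (3.12%) and 4.31%, and the 10-base palindromic motif of the nuclear respiratory factor NRF1 in 0 and 1.07%. None of these motifs contains another. A match describes the letters in a window, not a bound site.

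At the point of entry, Pcx, whose upstream sequence is given above, passed as lower in all 3 comparisons. Its levels were 6.23, 5.49, 4.33 and 3.87 in T0, 3.06, 2.87 and 3.60 in vehicle, 3.29, 3.15, 3.33 and 3.55 with B20 and 3.22, 3.18, 3.24 and 3.92 with nintedanib. T0 replicates 1 and 2 were far above every other array, and nintedanib replicate 4 overlapped the lowest T0 array. The level was 3.49-fold lower in vehicle (log2 difference -1.80 ± 0.44, limma, adjusted p = 0.0352), 3.02-fold lower with nintedanib (-1.59 ± 0.41, adjusted p = 0.0258) and 3.14-fold lower with B20 (-1.65 ± 0.41, adjusted p = 0.0265). These calls ended in vehicle without T0 replicate 1 or 2 or any of the vehicle replicates (adjusted p 0.0655 to 0.118). They ended with nintedanib without T0 replicate 1 or 2 or nintedanib replicate 1, 2 or 3 (0.0591 to 0.0728), and with B20 without T0 replicate 1 or 2 or any of the B20 replicates (0.0505 to 0.073).

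The pyruvate carrier subunits Mpc1 and Mpc2, added here after their values were seen, did not pass. Mpc1 was measured at 6.80, 5.44, 4.84 and 5.58 in T0 and 4.25, 4.62 and 3.90 in vehicle. Its differences from T0 were -1.41 in vehicle (adjusted p = 0.0661), -1.21 with nintedanib (0.0569) and -0.80 with B20 (0.200). Those of Mpc2 were -0.76, -0.70 and -0.41. Without T0 replicate 1 they were -0.50, -0.44 and -0.16 for Mpc2, and the B20 difference of Mpc1 was -0.43.

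The subunits of the pyruvate dehydrogenase complex had lower means in all 3 groups, 5 of 5 each time. Pdhb, the beta subunit of the E1 component that decarboxylates pyruvate, was measured at 5.50, 4.35, 4.61 and 4.74 in T0. Its levels were 3.91, 4.01 and 3.70 in vehicle, 4.04, 4.07, 3.72 and 3.93 with B20 and 3.43, 3.92, 3.74 and 3.91 with nintedanib, all below the T0 arrays. The differences from T0 were -0.92 ± 0.24 in vehicle (limma, adjusted p = 0.0423), -1.05 ± 0.22 with nintedanib (0.0111) and -0.86 ± 0.22 with B20 (0.0289). The nintedanib call held when each array was left out in turn, but ended with median scaling (adjusted p = 0.0828) and with only the arrays compared (0.0596). The vehicle call ended without T0 replicate 1 or any vehicle replicate (adjusted p 0.0794 to 0.138), and the B20 call without T0 replicate 1 or B20 replicate 2, 3 or 4 (0.0558 to 0.0745).

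Dld, the E3 subunit that this complex shares with the 2-oxoglutarate dehydrogenase complex, had T0 levels of 3.99, 3.09, 3.37 and 3.59, all above those of the 3 later groups. The nintedanib levels were 2.34, 2.84, 2.76 and 2.74. It fell by 0.84 ± 0.20 with nintedanib (limma, adjusted p = 0.0199) and by 0.71 ± 0.20 with B20 (0.0451). In vehicle the difference was -0.76 and did not pass. The nintedanib call ended without nintedanib replicate 1 or T0 replicate 1 (adjusted p 0.0574 to 0.0632), and the B20 call without T0 replicate 1 or 4 or any B20 replicate (0.0664 to 0.124). Pdhx fell with nintedanib by 0.54 ± 0.16 (limma, adjusted p = 0.0468). That call ended without any of the nintedanib replicates or T0 replicate 1 or 2 (0.0584 to 0.127), and also with the authors' values (0.0702). The differences of Pdhx were -0.28 in vehicle and -0.38 with B20, neither past the test. The E1 alpha subunit Pdha1 and the acetyltransferase subunit Dlat passed in none of the 3, with group means of 3.71 and 1.52 in T0 against 2.95 to 3.08 and 0.61 to 1.03 later.

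Of the 6 regulators of the complex only Pdk4 passed, in vehicle. It was measured at 3.93, 2.65, 0.46 and -0.15 in T0, and all 3 vehicle arrays were below them by at least 2.31. Its level in vehicle was 23.7-fold lower (log2 difference -4.56 ± 1.18, limma, adjusted p = 0.0432). With nintedanib the difference was -3.19 ± 1.09 (adjusted p = 0.0743) and with B20 -2.33 ± 1.09 (0.197), or -1.33 without B20 replicate 4, with groups that overlapped T0. The vehicle call ended without T0 replicate 1 or 2 or any vehicle replicate (adjusted p 0.0954 to 0.12). Pdk1 was at 0.49, 0.14, 0.24 and 0.27 in T0 and differed by -0.21 ± 0.19, -0.15 ± 0.18 and -0.04 ± 0.18 in vehicle, nintedanib and B20.

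Pdk3, the kinase added here after its values were seen, had the opposite direction, from -1.60, -1.02, -0.69 and -0.19 in T0 to -0.17, 0.40, 0.10 and 0.00 with nintedanib. Its differences from T0 were 0.65 in vehicle (limma, adjusted p = 0.348), 0.96 with nintedanib (0.0895) and 0.55 with B20 (0.344). Without T0 replicate 1 the difference was 0.41 in vehicle and 0.31 with B20. It was 0.39 in vehicle without vehicle replicate 1, and 0.26 with B20 without B20 replicate 2. Pdk2 had group means of 2.17 in T0, 1.82 in vehicle, 1.48 with B20 and 2.08 with nintedanib. The phosphatases Pdp1 and Pdp2 passed in none, and Pdp1 had its T0 arrays spread from -0.83 to 0.74.

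In the first span of the cycle, from citrate to 2-oxoglutarate, Cs was the only 1 of 7 genes to pass. Citrate synthase joins acetyl-CoA to oxaloacetate and is used as a marker of mitochondrial content. Its levels were 7.12, 6.31, 6.07 and 6.10 in T0, 5.61, 5.47 and 5.46 in vehicle, 5.63, 5.56, 5.44 and 5.18 with B20 and 5.24, 5.55, 5.30 and 5.81 with nintedanib, with no overlap between T0 and the rest. The fall was 1.90-fold with nintedanib (log2 difference -0.92 ± 0.22, limma, adjusted p = 0.0200) and 1.93-fold with B20 (-0.95 ± 0.22, adjusted p = 0.0219). In vehicle the difference was -0.88 ± 0.24 and missed the threshold (adjusted p = 0.0523). The nintedanib call ended without nintedanib replicate 1 or 3 (adjusted p 0.0514 to 0.0614) and the B20 call without B20 replicate 4 (0.0702).

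The other genes of this span differed less. Idh1 was measured at 1.43, 1.30, 0.66 and 0.66 in T0 and differed by -0.42 ± 0.25 in vehicle, -0.58 ± 0.23 with nintedanib and -0.17 ± 0.23 with B20 (limma, adjusted p 0.369, 0.117 and 0.688). The vehicle difference of Idh1 was -0.22 without vehicle replicate 1 and -0.69 without vehicle replicate 3, and the B20 difference was -0.03 without T0 replicate 1 and -0.29 without T0 replicate 3. Among the isocitrate dehydrogenases, the mitochondrial NADP-dependent Idh2 had group means between 5.20 and 5.48. The 3 subunits of the NAD-dependent enzyme, Idh3a, Idh3b and Idh3g, had T0 means of 4.18, 3.90 and 5.95 and later means of 3.48 to 3.71, 3.62 to 3.88 and 5.54 to 5.70. Aco1, which also acts as an iron-responsive RNA-binding protein, had means between -1.46 in T0 and -1.24 in vehicle.

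From 2-oxoglutarate to succinate all 5 genes had lower means in all 3 groups, and 1 passed. Sucla2, the ATP-specific succinyl-CoA ligase subunit, was measured at 5.87, 4.72, 4.26 and 4.72 in T0 and 3.40, 3.90, 4.19 and 4.09 with nintedanib, apart by 0.07. Its differences from T0 were -0.93 in vehicle and -0.61 with B20, neither past the test. It fell with nintedanib by 1.00 ± 0.30 (limma, adjusted p = 0.0479). This call ended without any nintedanib replicate or T0 replicate 1, 2 or 4 (adjusted p 0.0538 to 0.131). The 2-oxoglutarate dehydrogenase subunit Ogdh had T0 arrays from 3.64 to 5.64, which enclosed all later arrays. Its partner Dlst had T0 arrays from 3.33 to 4.43, above all later arrays, which reached 3.30. The succinyl-CoA ligase subunits Suclg1 and Suclg2 had T0 means of 4.60 and 1.58 and later means of 3.88 to 4.09 and 0.94 to 1.30.

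All 4 succinate dehydrogenase subunits had lower means than T0 in the 3 groups. Sdha, the flavoprotein subunit that oxidises succinate, was measured at 5.21, 4.73, 4.81 and 4.94 in T0, 3.98, 4.42, 4.13 and 4.45 with nintedanib and 4.25, 4.32, 4.12 and 4.15 with B20, with no overlap. Its difference from T0 was -0.59 in vehicle and did not pass. It fell by 0.68 ± 0.16 with nintedanib (limma, adjusted p = 0.0195) and by 0.71 ± 0.16 with B20 (0.0198). These calls ended without T0 replicate 1 or, in turn, without nintedanib replicate 1 or B20 replicate 4 (adjusted p 0.0592 to 0.0619 and 0.0589 to 0.0593). Sdhb fell with nintedanib by 0.87 ± 0.25 (limma, adjusted p = 0.0414), with groups that overlapped. That call ended without T0 replicate 1, 2 or 4 or nintedanib replicate 1, 2 or 4 (0.0568 to 0.112). The differences of Sdhb were -0.68 in vehicle and -0.44 with B20, neither past the test. The membrane anchors Sdhc and Sdhd, with T0 means of 4.46 and 5.77, passed in none.

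From fumarate to oxaloacetate, Fh1 had the lowest p of any member against T0. Its T0 levels were 5.83, 5.36, 5.11 and 5.40, all above the nintedanib levels given before, by at least 0.40. The fall with nintedanib was 1.79-fold (log2 difference -0.84 ± 0.17, limma, adjusted p = 0.00953). It held when each array was left out in turn but not with median scaling of the arrays (adjusted p = 0.149). The differences of Fh1 were -0.50 in vehicle and -0.53 with B20, neither past the test. Mdh2, the mitochondrial malate dehydrogenase that regenerates oxaloacetate, was measured at 7.80, 7.17, 7.18 and 7.35 in T0, 6.46, 6.71, 6.69 and 6.86 with nintedanib and 6.91, 6.95, 6.63 and 6.63 with B20. It fell by 0.69 ± 0.17 with nintedanib (adjusted p = 0.0197) and by 0.59 ± 0.17 with B20 (0.0420), and differed by -0.67 ± 0.18 in vehicle (0.0502). The nintedanib call ended without nintedanib replicate 1 or T0 replicate 1 (adjusted p 0.0529 to 0.0619), and the B20 call without any B20 replicate or T0 replicate 1, 2 or 4 (0.0519 to 0.117). The nintedanib call also ended with the authors' values (adjusted p = 0.0747), with quantile normalisation (0.0873) and with both normexp and quantile normalisation (0.0739), and the B20 call with normexp and the 75th percentile (0.0539).

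The cytosolic malate dehydrogenase Mdh1 had means of 5.53 in T0 and 5.23 to 5.31 later. Of the malic enzymes, none passed against T0. Me1 had T0 levels of 6.38, 5.50, 5.12 and 5.30, Me2 had -0.53, -0.32, -0.04 and 0.15, and the second mitochondrial form, Me3, had 2.28, 0.65, -1.10 and -1.52. The T0 arrays of Me3 enclosed all later arrays, and B20 replicate 1 stood at 1.44 against -1.28 to -0.27 on the other B20 arrays.

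T0 replicate 1 was the highest of the T0 arrays for 32 members and T0 replicate 4 for the other 4. Without T0 replicate 1 the median differences shrank to -0.34 in vehicle, -0.39 with nintedanib and -0.24 with B20. The members lower were then 31, 31 and 28 of 36, and 0, 3 and 1 passed the test, against 1.86%, 6.11% and 3.87% of all genes. Without T0 replicates 3 and 4 together, an alternative chosen after seeing the data, the medians were -0.79, -0.84 and -0.70, and 11, 21 and 12 members passed, against 11.9%, 18% and 15.3% of all genes.

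Markers of some other cell types were also lower than in T0. Of 16 adipocyte markers 16 were lower than in T0 in all 3 groups, with 12, 13 and 13 past the test in vehicle, nintedanib and B20 and medians of -5.21, -3.34 and -3.04. The mean level of the list was 2.72 to 5.43 in T0, -1.87 to -0.26 in vehicle, -0.37 to 1.93 with B20 and -0.53 to 2.19 with nintedanib. The brown fat marker Ucp1 was not well above background in any of the vehicle samples. Adipocyte levels were 5.43, 4.74, 3.02 and 2.72 on T0 replicates 1 to 4, the same order as the Pcx and Pdk4 levels on these arrays. Other members that passed did not keep this order: Pdhb, Dld, Sdha and Mdh2 were lowest on T0 replicate 2. The mean over the 36 genes was 4.06, 3.38, 3.06 and 3.25 on these arrays. The order of the adipocyte levels was not particular to adipocytes. Skeletal muscle markers had it too, at 5.72, 4.19, 2.27 and 0.49, as did erythroid markers, at 4.33, 3.32, 3.06 and 2.47. In bulk tumour RNA, fewer cells of a type and less RNA per cell cannot be told apart.

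All 18 skeletal muscle markers were also lower than in T0 in the 3 groups, with 0 past the test and medians of -3.80, -2.86 and -1.58. Their mean level was 0.49 to 5.72 in T0, -1.21 to 1.21 in vehicle, -0.74 to 5.19 with B20 and -1.16 to 2.31 with nintedanib. B20 replicate 1, the B20 array with the highest Pdk4 and Me3, was also the one with the highest muscle level, 5.19, and the highest adipocyte level, 1.93. Endothelial markers were lower in 14 of 14, 14 of 14 and 13 of 14 cases in vehicle, nintedanib and B20, with 3, 6 and 11 past the test. Their medians were -0.94, -0.91 and -1.50. Few markers of the luminal, leukocyte and erythroid lists passed. The 12 luminal markers had medians of -0.18, -0.20 and -0.19, with 8 lower each time and 1 past the test, with nintedanib. The 11 leukocyte markers measured had medians of -0.32, -0.05 and -0.05, and the 5 erythroid markers had -1.08, -0.02 and 0.39, with at most 1 marker of each list past the test in a comparison. At treatment end, adipocyte markers had higher means than in vehicle in 16 of 16 cases with nintedanib and 15 of 16 with B20, with 0 past the test. At an unadjusted p under 0.05 they numbered 7 and 9, all higher, against 4.83% and 3.25% of all genes (limma). Higher means were also found for 16 and 18 of 18 muscle, 5 and 5 of 5 erythroid and 10 and 8 of 11 leukocyte markers. For luminal markers it was 6 and 6 of 12, and for endothelial markers 4 and 1 of 14. The part of these markers in the results on the 36 genes was not tested.

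**Figure D4:**
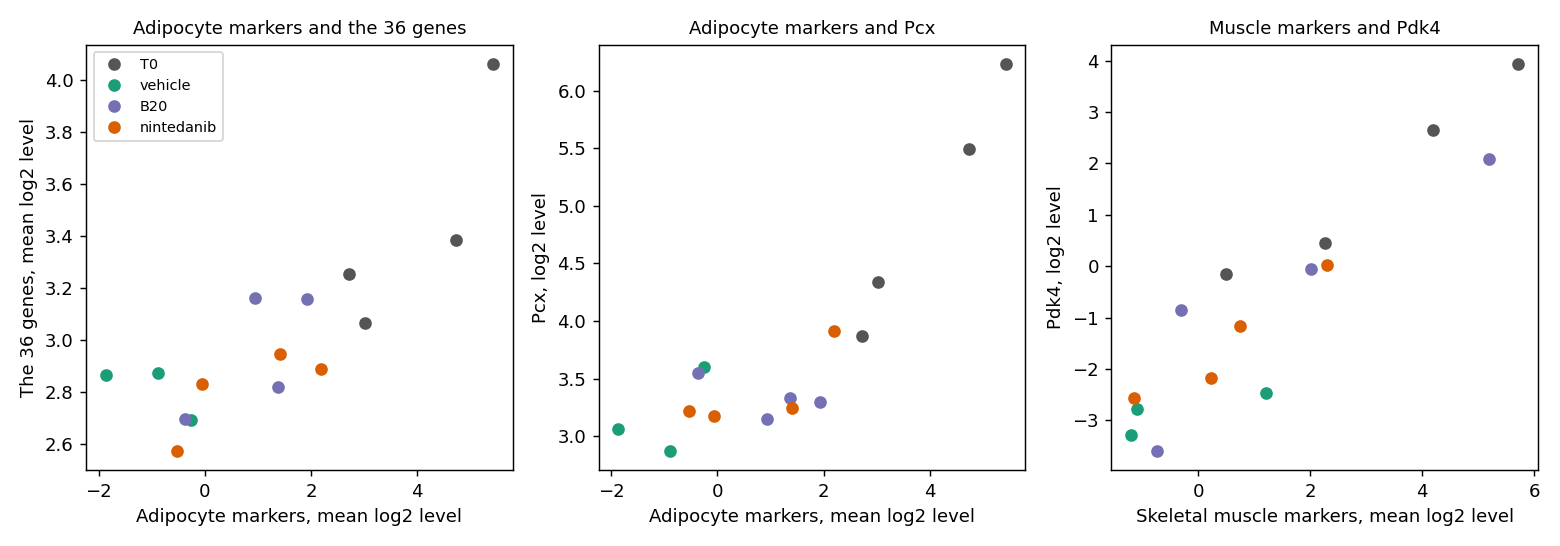
Each point is 1 array, coloured by group. The horizontal axes give the mean log2 level of 16 adipocyte markers (left and centre) or 18 skeletal muscle markers (right), and the vertical axes give the mean log2 level of the 36 genes, Pcx and Pdk4. T0 arrays lie at adipocyte levels of 2.72 to 5.43 and all others at or below 2.19.

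Other genes of mitochondrial pyruvate and cycle metabolism were followed as a list of 50, of which 46 were measured. Against T0, 33, 32 and 30 of the 46 had lower means in vehicle, nintedanib and B20. In vehicle 3 passed the test as lower and 0 as higher. With nintedanib 6 passed as lower and 1 as higher, and with B20 5 as lower and 0 as higher. The genes that passed are 6.52%, 15.2% and 10.9% of the 46, beside 4.93%, 11.4% and 9.51% of all genes. Their median differences were -0.21, -0.22 and -0.20, nearer to 0 than those of the 36 enzymes. Pck1, the cytosolic enzyme that makes phosphoenolpyruvate from oxaloacetate and is also in the adipocyte list, fell by 7.00 ± 1.06 in vehicle (limma, adjusted p = 0.00616) and by 4.40 ± 0.98 with B20 (0.0183). Gpt2, the mitochondrial alanine transaminase, fell by 1.02 ± 0.21 in vehicle (0.0184) and by 0.83 ± 0.20 with nintedanib (0.0189).

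Acly, which splits citrate in the cytosol for lipid synthesis, fell by 1.32 ± 0.30 with nintedanib (limma, adjusted p = 0.0167), and the succinate semialdehyde dehydrogenase Aldh5a1 fell by 0.86 ± 0.22 with B20 (0.0280). At treatment end 0 of the 46 passed in any comparison with limma, and 1, 2 and 3 had an unadjusted p under 0.05 for nintedanib against vehicle, B20 against vehicle and nintedanib against B20. Pck1 had the lowest p against vehicle with either drug, with differences of 3.06 ± 1.06 for nintedanib (adjusted p = 0.917) and 2.59 ± 1.06 for B20 (0.998). Between the drugs the lowest p was that of Lias, the lipoic acid synthase that lipoylates the dehydrogenase complexes, at -0.50 ± 0.20 (adjusted p = 0.524).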

How the data were processed

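Total RNA of 15 tumour samples was labelled with Cy3 and hybridised to Agilent 1-colour arrays (design 028005), per the labels' protocols and the file headers. The arrays were read with Feature Extraction 10.7.3.1, grid annotated on mm9, per the file headers. The values used are the processed spot intensity deposited for each array, which had its background subtracted and was not scaled across arrays. The authors also deposited a table of log2 values for the whole series, and no source used here says how it was made. Its column medians lay between 6.616 and 6.627, and it was nearly equal to quantile-normalised values after normexp correction (offset 50) (median r over arrays 0.999921). Flags of bright spots and of outliers are other values, given as 0 or 1 per the file headers.

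Spots of 1 probe were averaged without control and outlier spots. Each array's log2 signal was scaled by its 75th percentile. Probes were kept if well above background on 3 or more of 15 arrays, and the probe with the highest mean signal stood for a gene, which left 28041 genes and unnamed transcripts, 16111 with a symbol. Of the 36 members, 10 had several probes. Probes were named by transcript through RefSeq (GRCm38.p6, names only). One linear model with 4 group means was fitted to 15 arrays in R 4.3.3 with limma 3.58.1 (lmFit, eBayes), two-sided, with Benjamini-Hochberg adjustment over all genes tested, and a gene passed at an adjusted p under 0.05. The model was tested on simulated data.

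Median raw signal was 55 to 102 against a local background of 19 to 26, and precision is limited by how many arrays there are: a member's difference had a median SE of 0.26 for 4 against 3 arrays and 0.24 for 4 against 4. Within-group correlations of arrays showed no duplicated sample.

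The members and lists were chosen with earlier results of these data known. In each comparison the text names the members past the threshold, the 5 with the lowest p, and Pdk1, Pdk4, Cs and Idh1, and of the other pathway genes up to 2 with the lowest p. Alternatives were normexp correction, quantile and median scaling, the authors' values, other filters, the mean of probes, slide and replicate blocks, array weights, only the arrays compared, and each array left out. The files hold median spot signals in place of the mean signals planned for normexp, and the medians were used.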

Additional observations from a re-analysis of the deposited data

Results flagged for a closer look

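Of 108 sets of 4 arrays (36 genes in T0, B20 and nintedanib), 7 had 1 array far from the other 3, and chance gives about 1 in 20. In the nintedanib group, Pcx was 3.92 on replicate 4 against 3.18 to 3.24 on the others. On nintedanib replicate 3, Dlat was 0.69 (others 0.58 to 0.59), Pdp1 was 0.0311 (others -0.59 to -0.55), Me3 was -0.28 (others -1.21 to -1.14) and Ogdh was low at 3.97 (others 4.34 to 4.35). In T0, Pdhx was 1.61 on replicate 1 (others 0.97 to 0.99) and Mdh1 was low on replicate 2 at 5.13 (others 5.62 to 5.71).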

How the results depend on the processing

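The members' median difference from T0 stayed below 0 under every alternative run. It ranged from -0.79 to -0.34 in vehicle, from -0.84 to -0.39 with nintedanib and from -0.70 to -0.24 with B20, lowest without T0 replicates 3 and 4 and nearest to 0 without T0 replicate 1. At treatment end it ranged from -0.13 to 0.02 for nintedanib against vehicle, from 0.00 to 0.15 for B20 against vehicle and from -0.20 to -0.07 for nintedanib against B20. Its sign turned for nintedanib against vehicle without nintedanib replicate 1 (0.02) or vehicle replicate 1 (0.00). It turned to just below 0 for B20 against vehicle with array weights, without B20 replicate 2 and without vehicle replicate 3. Members past the test numbered 0 in each of the 3 treatment-end comparisons under every alternative, and 0 to 12, 0 to 22 and 0 to 12 for vehicle, nintedanib and B20 against T0. The highest numbers came with array weights in vehicle and nintedanib, where 18.8% and 28.3% of all genes passed. For B20 the highest came without T0 replicates 3 and 4, where 15.3% of all genes passed. With median scaling the members passing were 1, 0 and 1, against 2.43%, 4.88% and 4.23% of all genes. With only the arrays compared they were 0, 1 and 0, against 0.0606%, 5.2% and 3.49%. Averaging probes ended the calls of Pdhx, Sucla2 and Sdhb with nintedanib and of Dld with B20. Pdhx and Sucla2 have 1 probe each, so their differences stayed at -0.541 and -0.996, and the adjusted p of each was 0.0514 (limma). Keeping all dim probes ended the same calls, that of Mdh2 with B20 and all 3 in vehicle. Array weights ended those of Pdhb in vehicle and Dld with B20.

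Counts over all genes depended more on the settings, and the cause was not tested. For nintedanib against vehicle they were 12 with array weights and 0 to 1 when each array was left out, and for nintedanib against B20 the count was 1 with only the arrays compared. For vehicle against T0 they were 680 with median scaling, 894 with no filter on dim probes, 875 with slide as a block, 17 with only the arrays compared, 5279 with array weights, 480 to 2096 when each array was left out and 3348 without T0 replicates 3 and 4. For nintedanib against T0 they were 1368 with median scaling, 2025 with slide as a block, 1459 with only the arrays compared, 7927 with array weights, 1613 to 3918 when each array was left out and 5042 without T0 replicates 3 and 4. For B20 against T0 they were 1600 with normexp and the 75th percentile, 1186 with median scaling, 1536 with slide as a block, 978 with only the arrays compared, 6070 with array weights, 919 to 3305 when each array was left out and 4286 without T0 replicates 3 and 4. With normexp and the 75th percentile, 6 members had higher means with B20 than in T0, against 2. That setting also moved the median of all genes to -0.16 for nintedanib against B20, where the members' median was -0.11.

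Single genes near 0 changed sign. For nintedanib against vehicle, Cs was 0.0354 with quantile normalisation, 0.0025 with array weights and -0.150 to 0.0403 when each array was left out. Pdk1 there was -0.023 with array weights and -0.0152 to 0.215 with arrays left out, and Idh1 was -0.364 to 0.102. With arrays left out, Cs was -0.12 to 0.0288 for B20 against vehicle. For nintedanib against B20, Pdk4 was -1.86 to 0.0302, Pdk1 -0.248 to 0.0171 and Cs -0.0877 to 0.10. For B20 against T0, Pdk1 was 0.0057 with normexp and the 75th percentile and -0.162 to 0.103 with arrays left out.

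Samples with the same number in their titles did not deviate together: correlations of 21 same-numbered pairs ran from -0.25 to 0.38, and 5 were over 0.1. The paired analysis, with a replicate block, gave 0 genes in each treatment-end comparison. Against T0 it gave 1224, 2637 and 2080 genes for vehicle, nintedanib and B20, with 1, 7 and 2 members. These are 4.37%, 9.4% and 7.42% of all genes. The fit with only the arrays compared has fewer arrays to estimate the spread.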
